A study of Mus musculus with 4 samples.

Results

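The collagen genes were taken as every row of the gene count table whose mouse symbol, found through its Ensembl identifier, had the form Col, a number, the letter a and a number. This gave 44 genes of the 39056 in the table, all annotated as protein coding, and all 44 are accounted for here. The series compared lung cells of S1PR1-GFP reporter mice, which mark cells expressing the sphingosine-1-phosphate receptor S1PR1, without and with lipopolysaccharide (LPS), a bacterial outer-membrane component that injures the lung endothelium. The libraries were 1 with no LPS and 1 each at 8, 16 and 20 h of LPS at 10 mg/kg, injected into the peritoneum. The labels do not say whether these hours count from the injection, so every time given here, including those of the trend, is the label's. All 4 were labelled as S1PR1+ endothelial cells sorted as GFP+CD31+CD45-, made from polyadenylated RNA, and neither the age of the mice nor the number behind a library is given. The title places them in a study of how such cells help to restore the lung vessel wall.

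Collagens are secreted or membrane proteins whose chains wind around each other into a helix with glycine at regular spacing. The fibrillar types I, II, III, V and XI form the ropes of connective tissue, and types I and III are the main fibrillar collagens of lung interstitium. Type IV builds the sheet-like network of basement membranes, which lies under every vessel and airway, and type XVIII is a proteoglycan of the same membranes whose C-terminal fragment is endostatin. FACIT collagens, such as types XII and XVI, sit on the surface of fibrils, type VI forms beaded filaments, and type VII anchors skin basement membranes. A chain can be secreted only after it is hydroxylated, folded and joined with its partner chains in the endoplasmic reticulum.

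The totals were 27566454 to 28905776 reads per library, and a count of 0 allows a level of up to 0.104 to 0.108 CPM (counts of a gene scaled by library size), which is 3 reads. The endothelial marker genes went against the label. None of 8 endothelial markers reached 1 CPM in any library, their summed level was 1.01 to 1.23 CPM, and Erg and Emcn had 0 reads throughout. Pecam1, which encodes the sort marker CD31, had 7 reads without LPS and 2, 2 and 1 at 8, 16 and 20 h. Of 9 fibroblast and mesenchymal markers 5 reached 1 CPM, and their summed level was 2648 CPM without LPS, and 3059, 3179 and 2853 at 8, 16 and 20 h. Vim, which endothelial cells also express, gave most of that sum, at 2358 CPM without LPS. Without LPS Prrx1 stood at 210.1 CPM, Twist1 at 34.9, Pdgfra at 34.1 and Twist2 at 10.2. Pdgfrb stayed under 1 CPM, with 11 to 23 reads, and Tcf21 had 0 reads in every library. Of the markers of smooth muscle and pericytes 1 of 5 reached it, of leukocytes 2 of 5, and of epithelium 2 of 5. Each time below therefore stands for the library with that label. With 1 library per label no difference has a replicate check, and every interval covers counting error only.

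The collagen transcripts were a short list. Of the 44 genes, 17 reached 1 CPM in 1 or more libraries and count as measured, 13 were present in traces (at most 21 reads in any library), and 14 had at most 3 reads in every library. Of these 14, 5 had 0 reads in all 4 libraries: Col6a5, Col9a1, Col13a1, Col19a1 and Col28a1. The other absent genes were Col1a2, Col4a3, Col6a4, Col6a6, Col8a2, Col9a2, Col10a1, Col25a1 and Col26a1. Those in traces were Col1a1, Col2a1, Col4a6, Col5a2, Col6a3, Col11a1, Col14a1, Col15a1, Col17a1, Col22a1, Col23a1, Col24a1 and Col27a1. The weakest measured gene by its best library was Col4a5 with 80 reads at 8 h, and the strongest below the limit was Col2a1, the cartilage collagen, with 21 reads, or 0.758 CPM. Collagen genes together took 0.232% of all reads with no LPS (exact binomial 95% interval 0.230 to 0.234), 0.266% at 8 h (0.264 to 0.268), 0.261% at 16 h (0.259 to 0.263) and 0.239% at 20 h (0.237 to 0.240).

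Measured genes came from 7 of the 9 structural classes: 4 of 11 fibrillar, 4 of 6 basement membrane network, 4 of 9 FACIT, 2 of 6 beaded filament, 1 of 3 hexagonal network and 1 of 2 multiplexin genes, and the anchoring fibril gene Col7a1. None of the 4 transmembrane collagens and neither of the remaining genes, Col26a1 and Col28a1, was measured. The genes of type I collagen, the main product of fibroblasts, were close to absent: Col1a1 had 2, 3, 4 and 0 reads without LPS and at 8, 16 and 20 h, and Col1a2 had 0, 0, 1 and 0. Partner chains were often missing beside a measured chain. Col5a2, the usual partner of Col5a1, had 5 to 9 reads; Col6a3, the third main chain of type VI, had 13 to 17 reads; and Col8a2, which can join Col8a1, had 0 or 1. Of the genes on the fibroblast marker list, Col1a1 and Col1a2 thus stood near 0 while Vim and Prrx1 had 66653 and 5938 reads with no LPS.

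**Figure D1:**
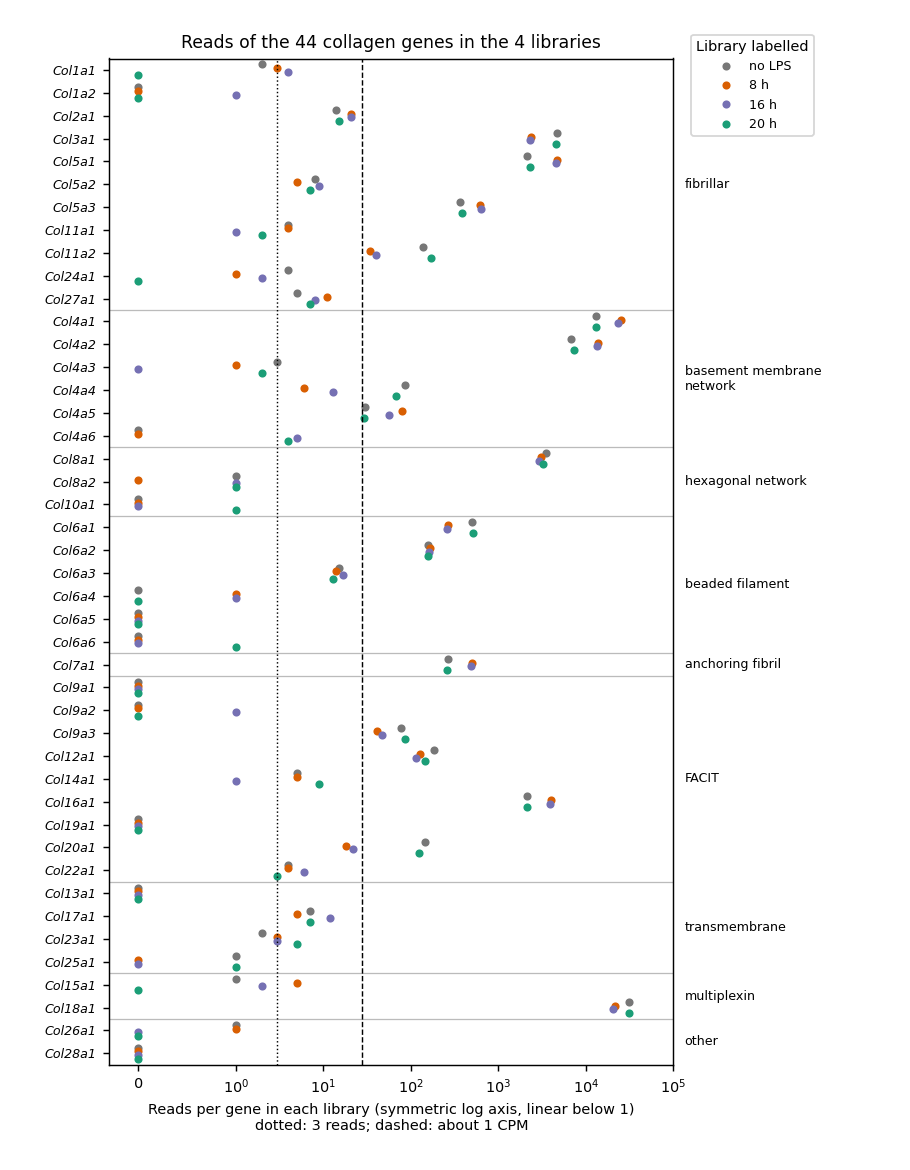
Reads of each of the 44 collagen genes (rows, grouped by structural class) in the 4 libraries (points), on a symmetric log axis that is linear below 1 read; the dotted line marks 3 reads and the dashed line about 1 CPM. The 17 measured genes lie past the dashed line in at least 1 library, and Col1a1 and Col1a2 lie at 4 reads or fewer.

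Some neighbouring collagen genes were unequal in reads, which are not adjusted for length here. Others shared a status. Col9a1 and Col19a1 were both absent, as were the neighbours Col6a4, Col6a5 and Col6a6. Col6a1, Col6a2 and Col18a1 were all measured, as were Col9a3 and Col20a1. Col3a1 and Col5a2 lie tail to tail on chromosome 1 with 24614 bases between them, and Col3a1 had 2305 to 4735 reads in the libraries where Col5a2 had 5 to 9. Col4a3 and Col4a4 lie head to head on chromosome 1 with 71 bases between their annotated starts, and Col4a4 had up to 86 reads against at most 3 for Col4a3. Col4a5 and Col4a6 lie head to head on chromosome X with 1308 bases between them, at 29 to 80 and 0 to 5 reads. Of the 3 head-to-head pairs, Col4a1 and Col4a2 alone had both members measured.

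The basement membrane genes Col4a1 and Col4a2 had the highest levels per length of the type IV chains and kept in step. They encode the chains that form the common type IV network of vessels, and their annotated 5′ ends overlap by 22 bases on chromosome 8 (mm10: Col4a1 11198423 to 11312826, minus strand; Col4a2 11312805 to 11449287, plus strand). Levels per length are given as RPKM, the CPM per kilobase of annotated exon. Col4a1 stood at 61.6 RPKM without LPS, and 117, 114 and 64.0 at 8, 16 and 20 h. Col4a2 stood at 36.4, 73.3, 72.5 and 39.6 RPKM in the same order. Both were high in the libraries labelled 8 h and 16 h and low in those labelled no LPS and 20 h. The ratio of the Col4a1 level to the Col4a2 level stayed between 1.57 and 1.69 in the 4 libraries.

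To be called, a gene needed a fold of 2 or more either way, a 95% counting interval that left out 1, and a level of 1 CPM or more where it was higher; this is a rule of size, not a test. Col4a2 lay on that limit, at 2.01-fold (1.96 to 2.07) at 8 h against no LPS, which was called, and at 1.99-fold (1.93 to 2.05) at 16 h, which was not. The call at 8 h was lost with scaling by library totals and with a correction for GC content and exon length. Col4a1 was at 1.90-fold (1.86 to 1.94) at 8 h and 1.85-fold (1.81 to 1.89) at 16 h, and was not called. At 20 h against no LPS the folds were 1.09 for Col4a2 and 1.04 for Col4a1.

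The promoters of 5 measured genes are shown because they cover the head-to-head pair that was high at 8 and 16 h (Col4a1 and Col4a2), the type IV gene that was low there (Col4a4), and the fibrillar genes that were high (Col5a1) and low (Col3a1) there. Each runs from 250 bases before to 50 after the RefSeq start (build GRCm38.p6, the same assembly as mm10), 5′ to 3′ on the gene's strand. They lie at chr8:11312777-11313076 (Col4a1, minus strand), chr8:11312555-11312854 (Col4a2, plus), chr1:82586800-82587099 (Col4a4, minus), chr2:27886175-27886474 (Col5a1, plus) and chr1:45311288-45311587 (Col3a1, plus). Capitals mark matches on either strand to GGGCGG (the GC box), CCAAT and TATAAA.
Col4a1: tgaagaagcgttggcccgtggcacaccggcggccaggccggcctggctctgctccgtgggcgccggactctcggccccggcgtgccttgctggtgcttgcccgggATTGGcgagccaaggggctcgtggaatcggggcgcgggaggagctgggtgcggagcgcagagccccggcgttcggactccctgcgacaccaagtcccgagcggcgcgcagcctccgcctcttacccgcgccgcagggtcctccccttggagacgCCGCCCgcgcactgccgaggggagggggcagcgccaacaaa
Col4a2: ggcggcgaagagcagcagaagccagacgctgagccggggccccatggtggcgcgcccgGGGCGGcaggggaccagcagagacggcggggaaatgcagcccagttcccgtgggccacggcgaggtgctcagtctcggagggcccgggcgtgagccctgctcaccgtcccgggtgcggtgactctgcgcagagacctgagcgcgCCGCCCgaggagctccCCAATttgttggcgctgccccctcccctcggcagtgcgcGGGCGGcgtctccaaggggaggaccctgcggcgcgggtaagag
Col4a4: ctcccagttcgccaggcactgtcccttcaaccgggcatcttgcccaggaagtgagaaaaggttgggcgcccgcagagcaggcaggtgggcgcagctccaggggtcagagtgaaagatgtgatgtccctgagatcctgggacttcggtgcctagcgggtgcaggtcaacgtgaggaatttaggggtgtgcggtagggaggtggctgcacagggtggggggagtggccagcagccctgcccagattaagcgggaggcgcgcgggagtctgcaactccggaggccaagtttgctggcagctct
Col5a1: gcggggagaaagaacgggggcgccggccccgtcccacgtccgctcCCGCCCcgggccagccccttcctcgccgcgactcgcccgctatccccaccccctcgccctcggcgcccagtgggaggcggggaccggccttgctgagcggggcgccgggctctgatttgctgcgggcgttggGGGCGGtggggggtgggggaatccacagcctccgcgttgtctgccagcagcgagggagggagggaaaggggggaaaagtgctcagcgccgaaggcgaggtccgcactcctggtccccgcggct
Col3a1: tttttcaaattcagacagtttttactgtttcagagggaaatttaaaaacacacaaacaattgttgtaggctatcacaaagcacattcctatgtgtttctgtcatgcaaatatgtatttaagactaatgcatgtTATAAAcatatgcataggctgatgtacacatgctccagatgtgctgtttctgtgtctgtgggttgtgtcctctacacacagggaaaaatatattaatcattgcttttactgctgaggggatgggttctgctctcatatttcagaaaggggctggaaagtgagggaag

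The Col4a1 and Col4a2 windows share 78 bases, so part of each sequence is the reverse complement of the other, and the last GC box match of the Col4a2 window is the GC box match of the Col4a1 window. Col4a1 held 1 GC box and 1 CCAAT match, Col4a2 held 3 and 1, Col5a1 held 2 GC boxes, Col3a1 held 1 TATAAA match, and Col4a4 held none of the 3 motifs. The 15 measured collagen genes with a promoter in the table had 17 windows. In at least 1 window, 11 of the 15 genes held a GC box, 7 a CCAAT match and 2 a TATAAA match. Among all 32851 promoter windows of the same length, 35.7% held a GC box, 37.4% a CCAAT match and 13.6% a TATAAA match. These shares are per window and the collagen counts are per gene, so the units differ. A match is a description of the sequence, and binding was not measured.

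The other measured type IV genes were weak and went opposite ways. Col4a4, which encodes a chain of the specialised network of kidney and alveolar basement membranes, had 86 reads without LPS, and 6, 13 and 67 at 8, 16 and 20 h. It was 14.6-fold lower (6.42 to 40.8) at 8 h and 6.49-fold lower (3.60 to 12.7) at 16 h, the largest fold of any measured collagen at 8 h. At 20 h it was not called, at 0.795-fold (0.569 to 1.11). Col4a5, which encodes another chain of that network, had 30, 80, 56 and 29 reads without LPS and at 8, 16 and 20 h. It was called higher at 8 h, at 2.63-fold (1.71 to 4.14), and not at 16 h, at 1.90-fold (1.20 to 3.07). Col4a3, the chain that assembles with those of Col4a4 and Col4a5, had 3, 1, 0 and 2 reads in the same order.

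Col18a1 and Col4a1 changed places as the collagen gene with the highest level per length. Col18a1 (chromosome 10, 77052178 to 77166548, minus strand) stood at 155 RPKM without LPS, and 108, 104 and 160 at 8, 16 and 20 h. It was 1.44-fold lower (1.41 to 1.46) at 8 h and 1.49-fold lower (1.46 to 1.51) at 16 h, short of the size needed for a call. The ratio of the Col18a1 level to the Col4a1 level was 2.51 without LPS, and 0.919, 0.911 and 2.50 at 8, 16 and 20 h. As a share of the summed collagen RPKM, Col18a1 made up 48.9% without LPS, and 29.2%, 28.7% and 48.7% at 8, 16 and 20 h. Col4a1 and Col4a2 together made up 30.9%, 51.5%, 51.5% and 31.6%. The fibrillar genes together kept a share of 8.38 to 9.04% in the 4 libraries, although their members differed in opposite directions. These shares use the summed annotated exons of each gene, so a library with more of a shorter isoform would be read as having a lower level.

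**Figure D2:**
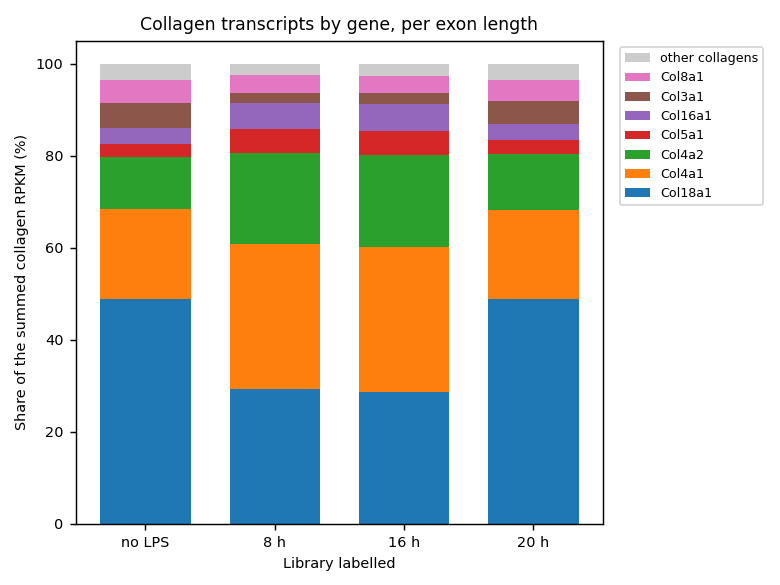
Share of the summed collagen RPKM (%) taken by the 7 collagen genes with the highest levels and by all others, in each library. Col18a1 made up 29.2% at 8 h, 28.7% at 16 h and 48.7% at 20 h, against 48.9% with no LPS, and Col4a1 and Col4a2 together made up 51.5% at 8 h and at 16 h.

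Among the fibrillar genes, Col5a1 and Col3a1 went opposite ways. Col5a1, whose type V chain takes part in starting collagen fibrils (chromosome 2, 27886425 to 28039514, plus strand), stood at 74.9 CPM without LPS, and 162, 163 and 83.6 at 8, 16 and 20 h. It was 2.17-fold higher (2.06 to 2.28) at 8 h and 2.18-fold higher (2.07 to 2.29) at 16 h, and it was the only measured collagen called higher at both labels. Col3a1, which encodes the type III chain of elastic tissues (chromosome 1, 45311538 to 45349706, plus strand), stood at 168, 81.8, 83.2 and 163 CPM without LPS and at 8, 16 and 20 h. It was 2.05-fold lower (1.95 to 2.15) at 8 h and 2.01-fold lower (1.92 to 2.12) at 16 h. Per length, the level of Col3a1 was 1.93 times that of Col5a1 without LPS, and 0.436, 0.441 and 1.68 times at 8, 16 and 20 h.

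Col5a3, which encodes a further type V chain, was not called; it had 365, 618, 634 and 385 reads without LPS and at 8, 16 and 20 h, at 1.67-fold (1.46 to 1.90) at 8 h and 1.77-fold (1.56 to 2.02) at 16 h. Col11a2, a type XI chain best known from cartilage and the inner ear, had 137, 34, 40 and 170 reads. It was 4.09-fold lower (2.79 to 6.15) at 8 h and 3.36-fold lower (2.35 to 4.90) at 16 h. Its partner gene Col11a1 had 1 to 4 reads.

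**Figure D3:**
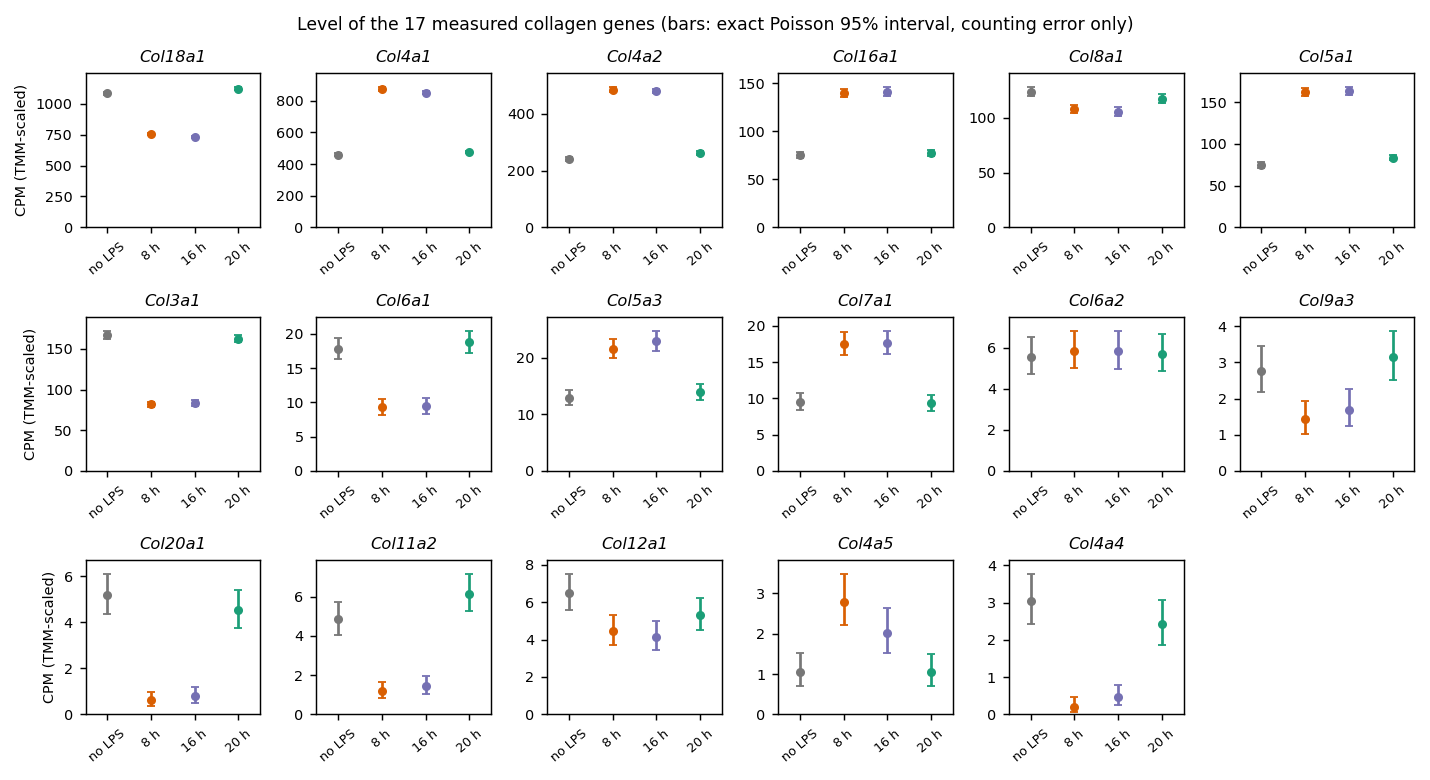
Level in CPM (TMM-scaled) of each of the 17 measured collagen genes in the 4 libraries, with exact Poisson 95% intervals for counting error; each panel starts at 0. In most panels the libraries labelled 8 h and 16 h lie together and apart from those labelled no LPS and 20 h; Col6a2 and Col8a1 differed little.

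In the fibril-associated class, Col16a1 had the highest level per length, at 11.1 to 21.0 RPKM. This gene, whose product is found near basement membranes and fibrils, stood at 75.2 CPM without LPS, and 140, 142 and 77.5 at 8, 16 and 20 h, at 1.86-fold (1.77 to 1.96) and 1.88-fold (1.79 to 1.99) at 8 and 16 h. Col20a1 had the next largest fold to Col4a4 at 8 h, with 146, 18, 22 and 125 reads. It was 8.24-fold lower (5.03 to 14.3) at 8 h and 6.51-fold lower (4.14 to 10.7) at 16 h. Col9a3, a chain of the cartilage type IX collagen that lies 364345 bases from Col20a1 on chromosome 2, had 78, 41, 47 and 87 reads, at 1.93-fold lower (1.31 to 2.89) at 8 h and 1.63-fold lower (1.12 to 2.39) at 16 h. Its partner genes Col9a1 and Col9a2 had at most 1 read. Col12a1, which encodes a fibril surface chain of tendon and ligament, had 183, 128, 115 and 147 reads, at 1.45-fold lower (1.15 to 1.83) at 8 h. None of Col16a1, Col9a3 and Col12a1 was called against no LPS.

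The chains of the other networks were not called against no LPS. Col7a1, which encodes the anchoring fibril chain, stood at 9.48 CPM without LPS, and 17.5, 17.7 and 9.32 at 8, 16 and 20 h, at 1.85-fold (1.59 to 2.15) and 1.87-fold (1.60 to 2.17) at 8 and 16 h. Col8a1, a short network chain known from vessel walls and the cornea, varied little, at 124, 108, 106 and 118 CPM. Its folds were 0.872 (0.831 to 0.916) at 8 h and 0.855 (0.813 to 0.898) at 16 h. The 2 measured type VI chains did not keep step: Col6a1 had 503, 267, 261 and 520 reads, and Col6a2 had 157, 168, 162 and 158. Col6a1 was 1.91-fold lower (1.65 to 2.23) at 8 h, and Col6a2 was at 1.05-fold (0.842 to 1.32). Their RPKM ratio was 6.09 without LPS, and 3.02, 3.06 and 6.26 at 8, 16 and 20 h. Both chains are parts of type VI filaments.

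Against no LPS, 3 of the 17 measured collagens were higher at 8 h (Col4a5, Col5a1 and Col4a2) and 4 were lower (Col3a1, Col11a2, Col20a1 and Col4a4). That is 41.2% of the measured collagens, where 8.31% of all 11803 measured genes were called (4.19% higher and 4.13% lower). Col4a4 and Col20a1 reached 1 CPM only without LPS and at 20 h, so they count as measured through the libraries where they were high. With the correction for GC content and exon length 2 were higher and 5 lower at 8 h. The share of all measured genes under that correction is not given here. At 16 h, 1 was higher (Col5a1) and the same 4 were lower, 29.4% against 8.23% of all measured genes (4.13% higher and 4.09% lower). At 20 h none of the 17 was called, where 0.652% of all measured genes were (0.551% higher and 0.102% lower), and their log2 ratios lay between -0.32 and 0.34. The calls at 8 h and 16 h share the library with no LPS, so they are not independent of each other.

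Many folds lay just short of the limit. With a fold of 1.5 in place of 2, 7 collagens were higher and 6 lower at 8 h, and 7 were higher and 7 lower at 16 h. These are 76.5% and 82.4% of the measured collagens, where 19.9% of all measured genes passed that size at 8 h (10.4% higher and 9.41% lower) and 20% at 16 h (10.6% higher and 9.4% lower). At 20 h against no LPS no collagen passed it, against 2% of all measured genes (1.72% higher and 0.28% lower). Between 16 h and 8 h none did either, against 0.779% (0.458% higher and 0.322% lower). Between 20 h and 16 h 7 were higher and 7 lower, 82.4% against 20.7% (10.6% higher and 10.2% lower). The median absolute log2 ratio was 0.93 for the measured collagens at 8 h, against 0.27 for all measured genes, and 0.89 against 0.28 at 16 h. The median signed log2 ratio of the collagens was -0.20 at 8 h and -0.23 at 16 h, with members on both sides of 0. Krt8 and Krt18, keratins on the epithelial marker list, were also higher at 8 h, at 2.48-fold and 2.38-fold, with Epcam at 1 to 3 reads and Sftpc at 0 or 1 in the 4 libraries. The summed level of the 5 epithelial markers was 51.5, 124, 125 and 52.0 CPM without LPS and at 8, 16 and 20 h, that of the 5 smooth muscle and pericyte markers 6.93, 4.60, 4.15 and 7.04 CPM, and that of the 5 leukocyte markers 1.84, 1.81, 2.35 and 2.35 CPM. Of these leukocyte markers Csf1r was called higher at 16 h, on 30 against 9 reads with no LPS, at 3.40-fold (1.57 to 8.14). Csf1r reached 1 CPM only at 16 h, so it counts as measured through that library. Whether cells of another type had a part in the collagen differences was not tested, and in bulk RNA fewer cells of a type and less RNA per cell cannot be told apart.

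**Figure D4:**
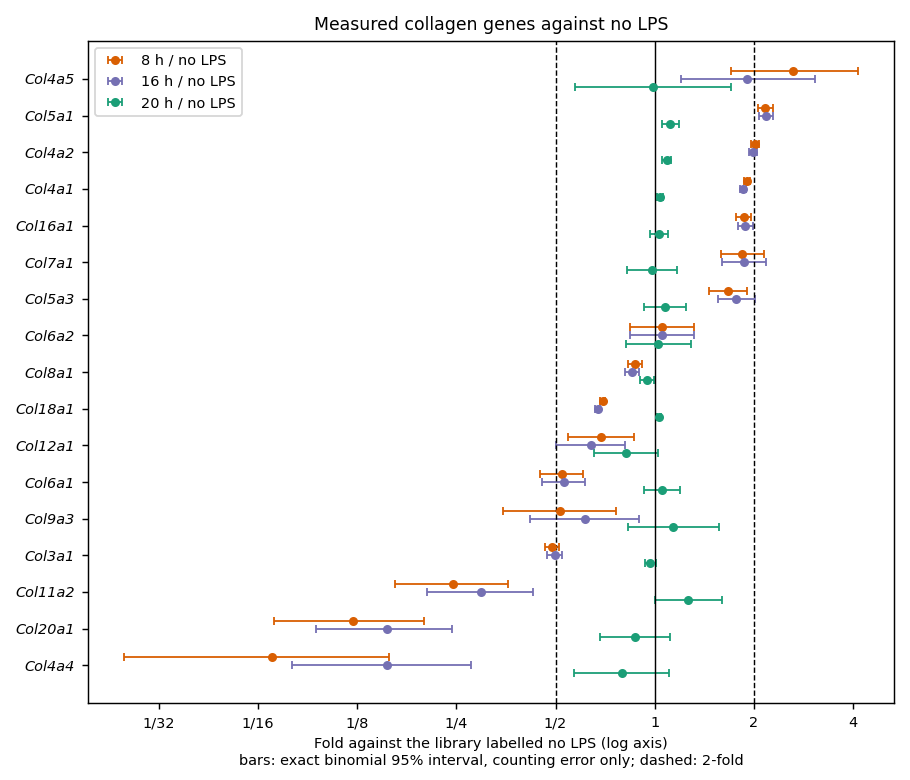
Fold of each measured collagen gene at 8 h, 16 h and 20 h against no LPS (log axis), with exact binomial 95% intervals for counting error; dashed lines mark 2-fold. Points for 8 h and 16 h lie close to each other for most genes, from 14.6-fold lower for Col4a4 to 2.63-fold higher for Col4a5 at 8 h, and points for 20 h lie near 1.

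Successive labels gave the same grouping of libraries. Between 16 h and 8 h none of the 17 was called, where 0.237% of all measured genes were (0.161% higher and 0.0763% lower), and the median absolute log2 ratio of the collagens was 0.04. Between 20 h and 16 h, 3 were higher and none lower, 17.6% against 8.47% of all measured genes (4.63% higher and 3.85% lower). With the GC content and length correction 3 were higher and 1 lower, and the share of all genes under it is not given here. Col20a1 was 5.68-fold higher (3.59 to 9.40) at 20 h than at 16 h, Col4a4 5.16-fold (2.82 to 10.2) and Col11a2 4.25-fold (2.998 to 6.16). Col20a1 and Col4a4 were under 1 CPM at 16 h, at 0.794 and 0.469 CPM. A straight trend over 0, 8, 16 and 20 h, the test across the 4 libraries, found no collagen. A straight line cannot follow levels that differ at 8 and 16 h and lie near no LPS at 20 h. Its outcome therefore says nothing about that pattern. With edgeR's quasi-likelihood test 0 of 17 passed an adjusted p of 0.05, as did 0 of all 11803 genes (0%), and no collagen had an unadjusted p under 0.05, against 43 of all genes. DESeq2 passed 0 of 17 and likewise 0 of all genes.

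Genes that make, export, cross-link or bind collagen were read from 7 lists of 62 genes in all, of which 47 were measured. At 8 h 2 of the 47 were higher and 3 lower, 10.6% against 8.31% of all measured genes. At 16 h 4 were higher and 3 lower, 14.9% against 8.23%, and at 20 h 1 was higher, 2.13% against 0.652%. Among the called genes, P4ha3 reached 1 CPM only at 8 and 16 h, and Loxl2 only at 16 h. Mmp9 reached it only at 16 and 20 h, and Creb3l1 only without LPS. These genes count as measured through the libraries where they were high, and the shares include them. The lists are short, so 1 called member is not a result about its list. The median log2 ratio of the 47 was 0.00 at 8 h and -0.01 at 16 h. Most of the machinery of chain synthesis was well expressed and not called. Serpinh1, the collagen chaperone HSP47, stood at 699 CPM without LPS, and 747, 755 and 716 at 8, 16 and 20 h. P4ha1, a catalytic subunit of prolyl hydroxylase, stood at 775, 474, 480 and 797 CPM, at 1.64-fold lower (1.60 to 1.67) at 8 h.

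Of 14 measured genes for chain hydroxylation and glycosylation, P4ha3 alone was called. This further prolyl hydroxylase subunit had 9, 79, 56 and 19 reads without LPS and at 8, 16 and 20 h, and was 8.64-fold higher (4.33 to 19.6) at 8 h. Its levels were 0.318, 2.75, 2.02 and 0.686 CPM in the same order, so it counts as measured through the libraries where it was high. Among 9 folding and export genes, Creb3l1, a transcription factor known to drive collagen secretion, was lower at 8 h with 19 reads against 48 with no LPS. Of 4 measured genes for propeptide removal, Pcolce, which enhances cleavage of fibrillar procollagen, was 2.96-fold higher (2.80 to 3.14) at 8 h and 2.96-fold at 16 h. The protease gene Bmp1, whose product makes that cut, was at 1.76-fold (1.66 to 1.86) at 8 h and was not called.

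The 4 measured cross-linking genes had a median log2 ratio of 0.86 at 8 h and 0.89 at 16 h. For all measured genes it was 0.004 and 0.006. Of the other lists, propeptide removal had 0.54 and 0.55, receptors 0.11 and 0.07, and folding and export 0.02 and 0.11. Fibril partners had -0.19 and -0.31, degradation -0.20 and -0.13, and chain hydroxylation and glycosylation -0.22 and -0.24. Pxdn, the peroxidase that cross-links type IV collagen, stood at 116 CPM without LPS, and 205, 204 and 111 at 8, 16 and 20 h, at 1.77-fold (1.70 to 1.85) at 8 h. The lysyl oxidase family gene Loxl2 was called higher at 16 h on 32 against 9 reads. At 8 h Loxl2 was at 2.95-fold (1.35 to 7.14) on 27 reads. It was not called there because its 0.940 CPM lay under the limit of 1 CPM. Lox itself had 0 to 3 reads. Of 7 measured receptor genes, the fibrillar collagen receptor Ddr2 was at 847 to 976 CPM and not called, and Itga10, an integrin chain that binds collagen, was 3.44-fold lower (2.53 to 4.73) at 8 h. The collagen-binding proteoglycan gene Dcn was the called member of 5 measured fibril partners, 3.20-fold lower (2.50 to 4.14) at 8 h, with 268, 85, 95 and 214 reads. Of 4 measured degradation genes, Mmp9 was higher at 16 h and at 20 h, on 34 and 33 reads against 13 with no LPS.

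**Figure D5:**
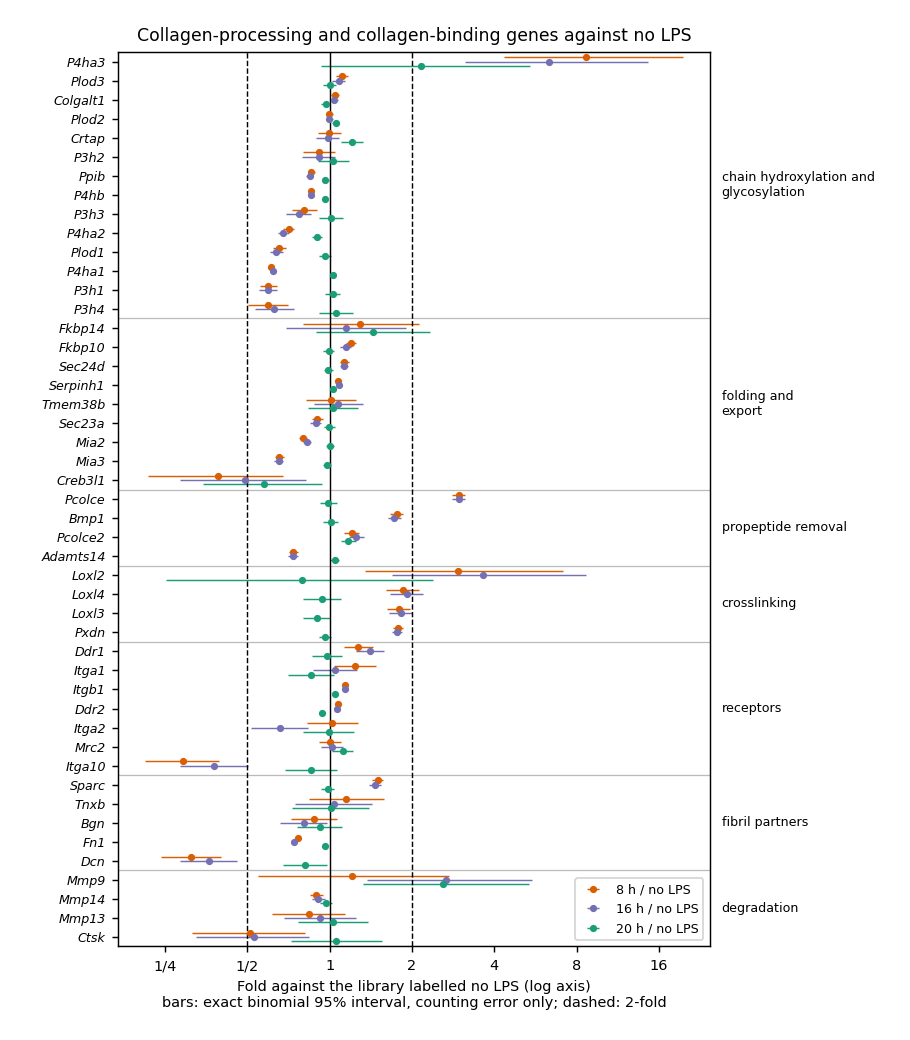
Fold of the 47 measured collagen-processing and collagen-binding genes, by list, at 8 h, 16 h and 20 h against no LPS (log axis), with exact binomial 95% intervals for counting error; dashed lines mark 2-fold. Most points lie between the dashed lines. At 8 h P4ha3 at 8.64-fold, Pcolce at 2.96-fold and Loxl2 at 2.95-fold lie beyond 2-fold on the higher side. On the lower side lie Itga10 at 3.44-fold, Dcn at 3.20-fold and Creb3l1 at 2.57-fold. P4ha3, Loxl2 and Creb3l1 were under 1 CPM in some libraries.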

How the data were processed

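The authors deposited raw read counts, with a row for each gene and a column for each library. The submitters' processing notes name STAR, featureCounts and the mm10 build; the sources used here give no version, annotation, strand setting or treatment of multi-mapping reads. Columns were matched to samples by name and groups follow the treatment label. Symbols, coordinates (counted from 1) and summed exon lengths came from GENCODE M21 of the same build: 38872 of 39056 identifiers (99.5%) matched by stable identifier. Promoters came from RefSeq.

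Counts were scaled with TMM factors from all 4 libraries (edgeR 4.0.16, R 4.3.3). Folds have exact conditional binomial (Clopper-Pearson) 95% intervals, and log2 ratios used a prior count of 2. The trend over hours used edgeR's glmQLFit and glmQLFTest with 2 residual degrees of freedom and Benjamini-Hochberg adjustment over the 11803 genes that reached 1 CPM in any library, with DESeq2 1.42.0 as an alternative. The pair rule and the trend fit were tested on simulated data, and the outcome is not given here. Simulated data cannot supply the variation between libraries of the same label. Without molecular identifiers, intervals and limits cover counting error alone. All measured collagens were named with values; other lists were given by counts, with members called against no LPS named and a few uncalled members chosen after their values were seen. The members, lists, markers and rules were chosen with earlier results of these data known. The alternatives were scaling, prior count, level and fold limits, interval level and thinning to equal depth. A lowess correction (span 0.3) covered GC content, taken from the longest transcript of each gene, and summed exon length. The last alternative, TMM factors from each pair of libraries alone, was added after the data were seen.

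Exon overlaps with other genes were at most 6.07% of a measured collagen's exon length (Col9a3 with Tcfl5, on the opposite strand, with 0 to 2 reads in the libraries). Col4a1 and Col4a2 share 22 exon bases.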

Additional observations from a re-analysis of the deposited data

How the results depend on the processing

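No called collagen changed direction under any alternative. The count of collagens called at 8 h against no LPS, 7, became 3 with a minimum of 10 CPM, 3 with a fold of 4 and 13 with a fold of 1.5. At 16 h the count of 5 became 2, 2 and 14 under the same settings. Between 20 h and 16 h the count of 3 became 0 with a minimum of 10 CPM and 14 with a fold of 1.5. These changes follow from the settings' own limits. At 8 h the minimum of 10 CPM lost Col4a4, Col20a1, Col11a2 and Col4a5. Shares of all measured genes are given here only for folds of 2 and 1.5 at the main settings. The counts under other settings therefore stand without such a share. The correction for GC content and length gave 2 higher and 5 lower at 8 h, where Col4a2 was lost at a log2 ratio of 0.94 and Col9a3 was gained, and 3 higher and 1 lower (Col7a1) between 20 h and 16 h. Measured collagens have a median GC content of 57.7% in the longest transcript of each gene, against 49.6% for all measured genes. Scaling by library totals lost Col4a2 at 8 h, and thinning to equal depth added Col4a5 at 16 h. Between 20 h and 16 h, scaling by library totals added Col6a1 and dropping the minimum level added Col14a1, each for a count of 4. The 17 measured collagens became 15 with 1 CPM required in all 4 libraries, 11 with a limit of 1 RPKM and 30 with a limit of more than 3 reads. Of 510 single log2 ratios recomputed, 494 stayed within their counting interval and 16 moved outside it, 14 of these under the GC and length correction. Depth limits the weak genes: with 6 reads of Col4a4 at 8 h its fold spans 6.42 to 40.8. No paired analysis was possible because each label has 1 library and the labels give no replicate numbers.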
